A study of Mus musculus with 40 samples.

Results

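De novo lipogenesis, the making of fatty acids from acetyl-CoA, was followed at 10 genes in the genome-wide binding maps of 3 corepressor proteins in fed mouse liver. The genes were Srebf1, Mlxipl, Thrsp, Acly, Me1, Acaca, Acacb, Fasn, Elovl6 and Scd1, out of 21938 protein-coding genes in the annotation. They were listed for their function, with earlier results of these data known, so the comparison with all genes below is a description. Peaks were counted for a gene when the centre lay between its annotated ends or within 50 kb of them, and this stretch is called the window of the gene. The windows held 27 of 10654 SMRT peaks, 86 of 35138 NCoR peaks and 43 of 14462 HDAC3 peaks, and no peak fell in more than 1 of the 10 windows.

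Lipogenesis runs in the cytosol of hepatocytes and is high in the fed state. Insulin acts on it through SREBP-1c, encoded by Srebf1, and glucose through ChREBP, encoded by Mlxipl, and both factors raise transcription of the enzyme genes. NCoR and SMRT are related corepressors that bring the histone deacetylase HDAC3 to DNA-bound factors such as unliganded nuclear receptors and BCL6, and loss of HDAC3 or NCoR from liver is known for raising lipogenic gene expression.

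Binding was measured by chromatin immunoprecipitation and sequencing (ChIP-seq) in whole liver of male C57BL/6 mice fed ad libitum. The mice were labelled wild type and also Bcl6 fl/fl, that is, they carried loxP sites in Bcl6 without the Albumin-cre of the knockout group. Their age was not given in the labels, and all 3 cofactors shared this 1 condition. Each list of peaks came from 3 libraries that were pooled before peaks were called, so it carried no value per animal, no height and no depth, and whole liver also holds cells other than hepatocytes. The 31 other libraries of the 40, in knockout or fasted animals or for other targets, were not analysed here. All values below are therefore counts and positions in single lists, with no test between conditions. Intervals are exact (Clopper-Pearson) 95% binomial intervals, which cover counting error only, and neighbouring peaks are not independent.

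Peaks of all 3 cofactors were found in the window of every one of the 10 genes, but the amount and the mix of partners differed widely among them. Over all protein-coding genes, 72.3% had NCoR, 43.1% SMRT and 52.1% HDAC3 in the window. The plot of NCoR peaks by partner shows 15 NCoR peaks in the window of Mlxipl and 14 in that of Elovl6, against 3 in that of Thrsp. A site was called shared when SMRT and HDAC3 peaks both had their centres within 200 bp of the NCoR centre, and NCoR-only when neither did. All 6 NCoR sites at Scd1, the gene of the main liver stearoyl-CoA desaturase, had HDAC3, and 4 of them were shared. At Fasn, the gene of fatty acid synthase, 8 of 9 were NCoR-only.

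**Figure D1:**
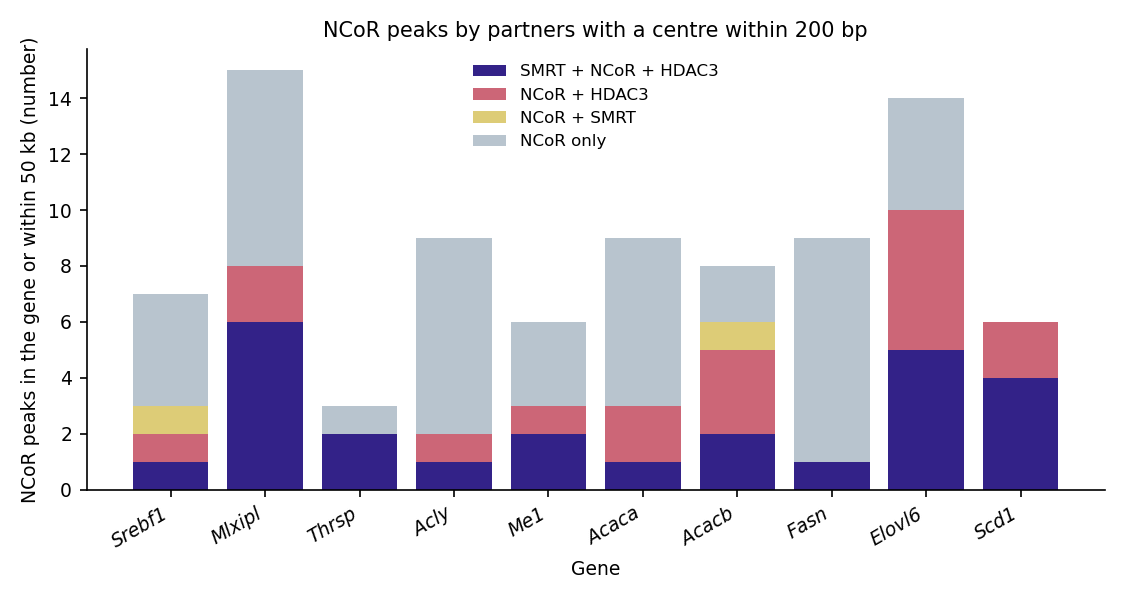
Number of NCoR peaks (vertical axis) in the gene or within 50 kb for each of the 10 lipogenic genes (horizontal axis), split by the partners within 200 bp. Mlxipl and Elovl6 have the most NCoR peaks, 15 and 14, Scd1 has no NCoR-only peak, and 8 of the 9 peaks at Fasn are NCoR-only.

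The sequences below are those of 1 site for each of 8 genes where a motif match lay in the peak, so that the binding can be read against the bases. For Mlxipl a second site is given because it abuts an upstream start of the gene. For Me1, Acaca, Fasn, Elovl6, Scd1 and the first Mlxipl line they are the shared site nearest to a transcription start site (TSS) of the gene. The Acacb site carried NCoR and HDAC3, as no shared site was nearest to Acacb, and the Srebf1 site and the second Mlxipl site were chosen after their values were seen. Each is written 5′ to 3′ on the strand of the gene, from the mm10 (GRCm38) genome between the listed start and end, both included. Capitals mark matches to the motifs named in the paragraph after the sequences, on either strand.
Srebf1 chr11:60222883-60223111, minus strand, NCoR and HDAC3: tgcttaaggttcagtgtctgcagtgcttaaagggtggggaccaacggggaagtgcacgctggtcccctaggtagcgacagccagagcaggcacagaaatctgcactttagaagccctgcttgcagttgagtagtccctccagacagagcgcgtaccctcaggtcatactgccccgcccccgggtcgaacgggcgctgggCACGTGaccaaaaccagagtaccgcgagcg
Mlxipl chr5:135108226-135108454, plus strand, shared: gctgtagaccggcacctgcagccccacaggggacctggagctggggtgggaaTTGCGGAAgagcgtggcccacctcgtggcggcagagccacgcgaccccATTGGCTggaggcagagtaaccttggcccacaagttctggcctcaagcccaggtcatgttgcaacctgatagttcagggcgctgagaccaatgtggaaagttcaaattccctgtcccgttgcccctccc
Mlxipl chr5:135089681-135089889, plus strand, NCoR-only, up to the upstream start: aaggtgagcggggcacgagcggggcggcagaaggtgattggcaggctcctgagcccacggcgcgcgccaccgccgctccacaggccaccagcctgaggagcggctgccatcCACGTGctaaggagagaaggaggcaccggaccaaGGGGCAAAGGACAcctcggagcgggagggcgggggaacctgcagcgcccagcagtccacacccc
Me1 chr9:86707433-86707661, minus strand, shared: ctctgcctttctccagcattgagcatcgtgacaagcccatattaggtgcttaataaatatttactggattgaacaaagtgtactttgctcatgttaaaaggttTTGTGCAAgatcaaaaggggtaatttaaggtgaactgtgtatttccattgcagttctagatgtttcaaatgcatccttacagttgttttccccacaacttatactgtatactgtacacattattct
Acaca chr11:84198075-84198303, plus strand, shared: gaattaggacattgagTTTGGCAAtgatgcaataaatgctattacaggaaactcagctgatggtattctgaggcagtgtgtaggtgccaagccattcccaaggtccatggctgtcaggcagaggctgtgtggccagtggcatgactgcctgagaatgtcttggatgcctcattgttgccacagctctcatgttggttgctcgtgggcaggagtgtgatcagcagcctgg
Acacb chr5:114146068-114146296, plus strand, NCoR and HDAC3: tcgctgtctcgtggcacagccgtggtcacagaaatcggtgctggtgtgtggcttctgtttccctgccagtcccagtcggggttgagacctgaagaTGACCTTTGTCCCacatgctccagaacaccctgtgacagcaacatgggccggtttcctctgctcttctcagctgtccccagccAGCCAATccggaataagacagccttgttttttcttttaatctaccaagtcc
Fasn chr11:120830809-120831037, minus strand, shared: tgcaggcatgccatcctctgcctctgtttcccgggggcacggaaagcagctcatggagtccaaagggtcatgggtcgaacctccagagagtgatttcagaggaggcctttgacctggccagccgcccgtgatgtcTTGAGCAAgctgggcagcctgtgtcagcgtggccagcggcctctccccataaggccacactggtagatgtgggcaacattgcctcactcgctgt
Elovl6 chr3:129532083-129532311, plus strand, shared: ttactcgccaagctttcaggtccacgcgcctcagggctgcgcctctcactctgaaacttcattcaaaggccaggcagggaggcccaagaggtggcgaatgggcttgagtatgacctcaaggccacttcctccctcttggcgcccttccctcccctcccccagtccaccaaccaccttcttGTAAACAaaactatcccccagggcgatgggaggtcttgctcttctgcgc
Scd1 chr19:44416314-44416542, minus strand, shared: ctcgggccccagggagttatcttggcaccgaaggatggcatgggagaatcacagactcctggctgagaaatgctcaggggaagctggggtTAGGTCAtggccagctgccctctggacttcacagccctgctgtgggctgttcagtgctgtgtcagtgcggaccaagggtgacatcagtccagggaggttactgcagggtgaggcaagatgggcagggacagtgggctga

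In these lines the Srebf1 site holds an E-box (CACGTG), the element to which basic helix-loop-helix factors such as ChREBP, SREBP and USF can bind. The first Mlxipl site holds a C/EBP match (TTNNGCAA) and an NF-Y match (AGCCAAT), and the second holds an E-box and a DR1, the direct repeat to which PPAR/RXR and HNF4 bind. The Me1, Acaca and Fasn sites each hold a C/EBP match. The Acacb site holds a DR1 and an NF-Y match, the Elovl6 site a FOX match (TGTTTAC), and the Scd1 site a match to the ROR and REV-ERB element (TAGGTCA). Each of these is a match of letters and not a measured binding site of the named factor.

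Among the regulators, Srebf1 (ENSMUSG00000020538.15, chr11:60199089-60222581, minus strand) had 7 NCoR, 2 SMRT and 2 HDAC3 peaks in its window. Its NCoR sites were made up of 1 shared, 1 with HDAC3, 1 with SMRT and 4 NCoR-only. The NCoR and HDAC3 site printed above lay at -2393 bp from the TSS in the basic annotation (negative distances are upstream and positive ones downstream), which is -416 bp from the outer end of the gene record. An NCoR-only peak at chr11:60210437-60210665, in an intron, was at -86 bp from another start listed only in the comprehensive annotation. The shared site at -20070 bp fell in an untranslated exon of the neighbouring gene Tom1l2, so the shared binding nearest to Srebf1 was well away from its starts.

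Mlxipl (ENSMUSG00000005373.13, chr5:135089890-135138382, plus strand) had 15 NCoR, 6 SMRT and 8 HDAC3 peaks. Shared sites numbered 6, with 2 of NCoR and HDAC3 and 7 NCoR-only. Per 100 kb of window this came to 10.1 NCoR peaks, a density above that of 98.6% of protein-coding genes. By the nearest basic TSS only 6 of the 15 were assigned to Mlxipl, and the others to neighbouring genes. Srebf1, Acaca, Fasn and Scd1 also had 6 assigned peaks in their windows, and Elovl6 had 13. Of the shared sites, 5 lay inside the gene record in a row at -5727, -2433, 1422, 8607 and 11982 bp from the basic TSS. The sixth was at -305 bp from the start of Baz1b, at the far side of the window. The NCoR-only peak printed above was at -95 bp from the upstream start of the gene record, which the basic annotation does not list, so by basic starts it counted towards Vps37d.

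Thrsp (ENSMUSG00000035686.8, chr7:97412938-97417730, minus strand), also called Spot 14, a small nuclear and cytosolic protein that rises with lipogenesis, had only 3 NCoR, 2 SMRT and 2 HDAC3 peaks. They sat close together on the upstream side. An NCoR-only peak was centred at -18 bp from the start, and shared sites at -1183 and -6125 bp. Thrsp has the shortest window of the 10 genes, 104.793 kb, and its 2.86 NCoR peaks per 100 kb were a higher density than in 64.4% of genes.

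**Figure D2:**
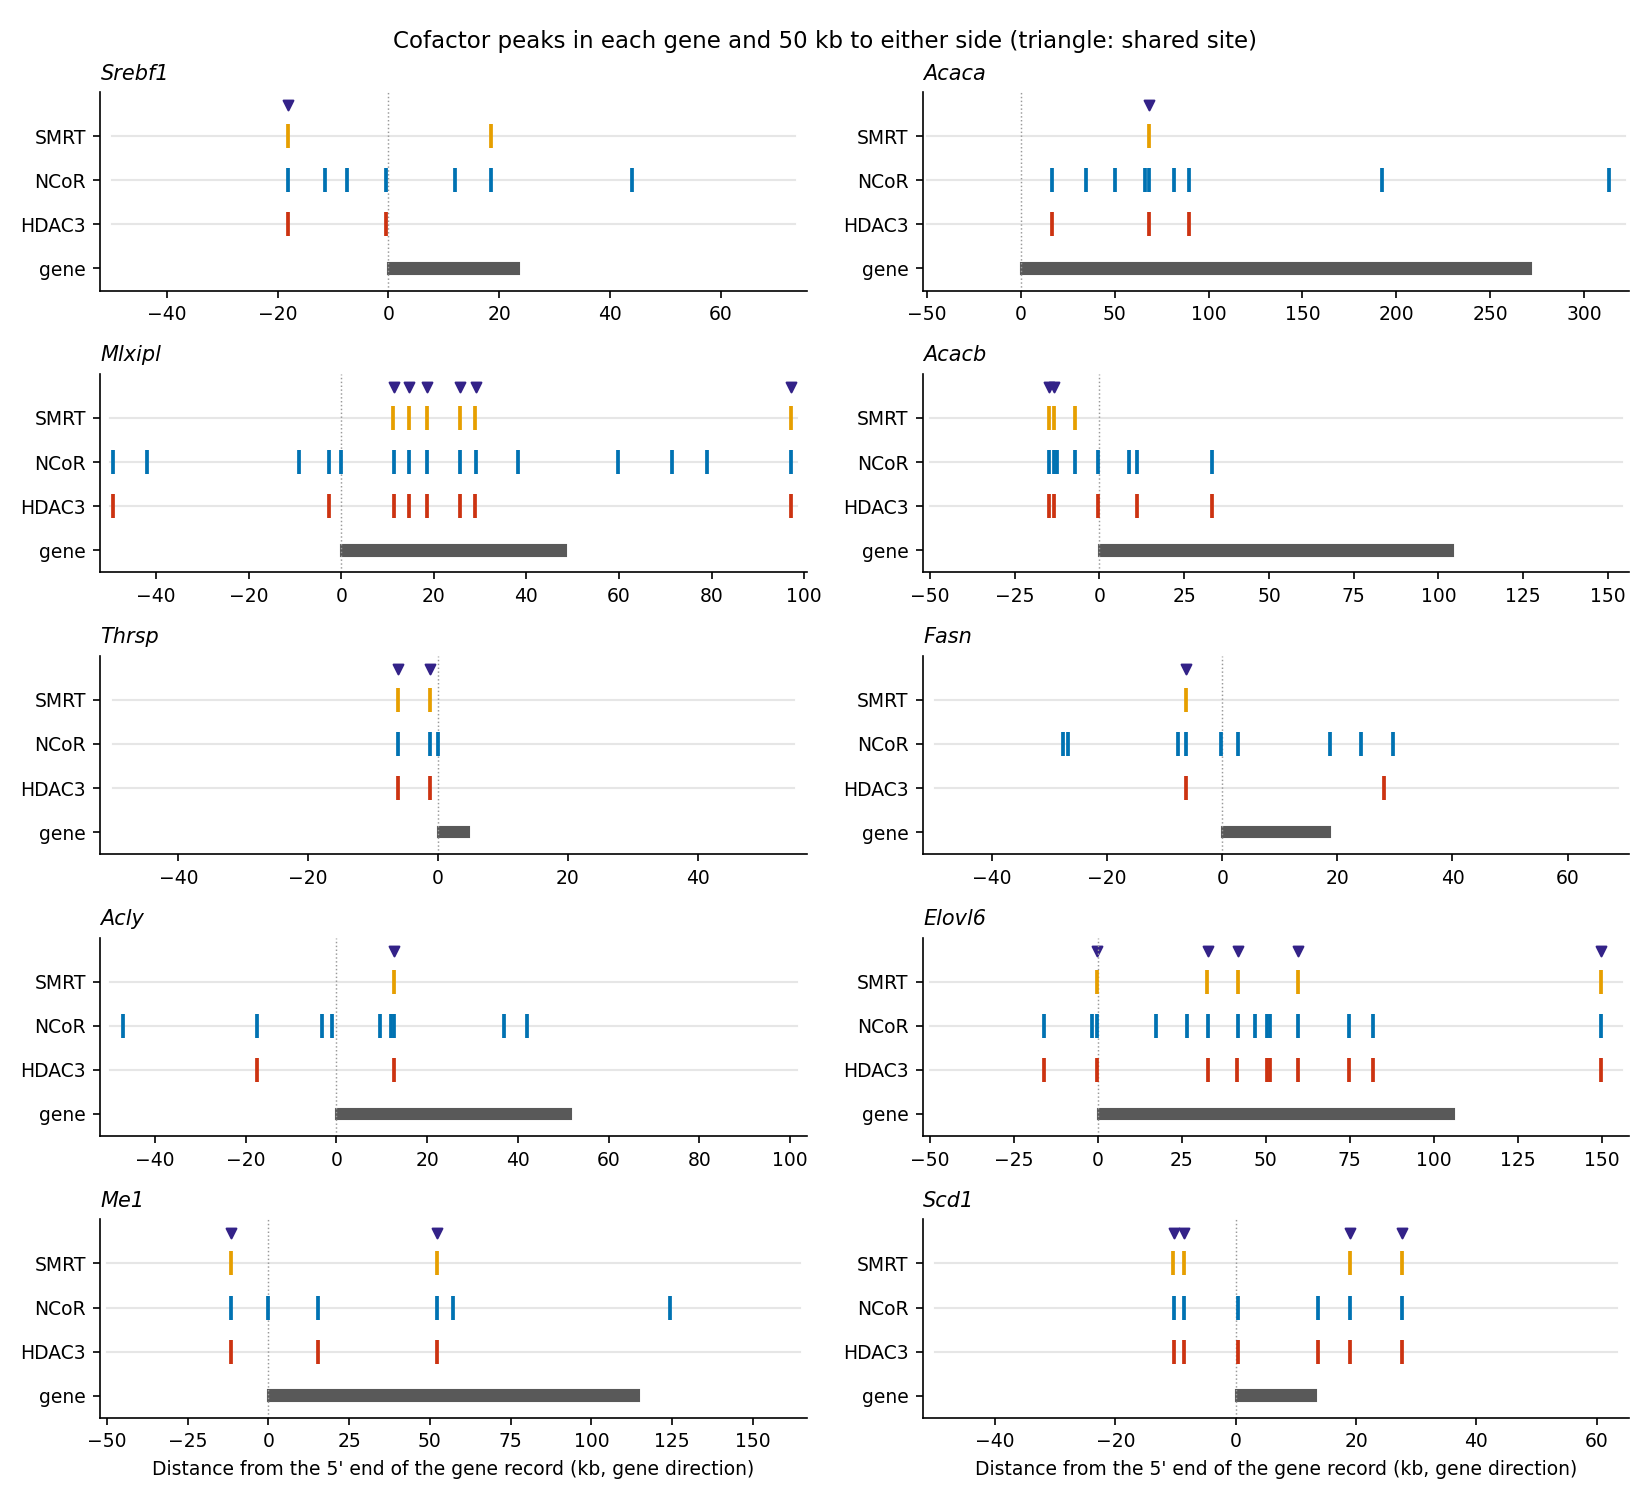
Positions of SMRT, NCoR and HDAC3 peak centres (ticks, 1 row per cofactor) along the window of each lipogenic gene, in kb from the 5′ end of the gene record in the direction of transcription, with the gene as a grey bar and shared sites as triangles. Shared sites form a row inside Mlxipl and Elovl6, sit upstream of Thrsp, and flank Scd1 on either side.

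Among the genes that supply malonyl-CoA and NADPH, Acly and Acaca had mostly NCoR-only sites, while Acacb had HDAC3 at 5 of its 8 NCoR sites. Acly (ENSMUSG00000020917.17, chr11:100476353-100528000, minus strand), whose product ATP citrate lyase makes cytosolic acetyl-CoA from citrate, had 9 NCoR, 1 SMRT and 2 HDAC3 peaks. The single shared site was in an intron at 8363 bp, another site of NCoR and HDAC3 was at the promoter of Ttc25, and 7 sites were NCoR-only. Of these, the one nearest to an Acly start lay at -1026 bp, just beyond the promoter limit of 1000 bp used below.

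Me1 (ENSMUSG00000032418.15, chr9:86581371-86695953, minus strand), the gene of cytosolic malic enzyme, which yields NADPH, had 6 NCoR, 2 SMRT and 3 HDAC3 peaks. At the promoter, -59 bp from the start, NCoR was found without SMRT or HDAC3. The shared sites were farther off, at -11594 bp and, in an intron, at 43576 bp. A site of NCoR and HDAC3 in an intron at 6692 bp held 2 matches to the ROR and REV-ERB element.

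The acetyl-CoA carboxylase genes, whose products make malonyl-CoA, differed in where HDAC3 was found. Acaca (ENSMUSG00000020532.18, chr11:84129672-84401651, plus strand) encodes the cytosolic enzyme that feeds fatty acid synthesis. It had 9 NCoR, 1 SMRT and 3 HDAC3 peaks, of which 6 NCoR peaks stood without a partner, among them the nearest to a basic start, at 536 bp. The shared site was at 2751 bp, in an intron. A further NCoR-only peak at chr11:84179564-84179792 was at -153 bp from an internal start of the comprehensive annotation.

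Acacb (ENSMUSG00000042010.16, chr5:114146535-114250761, plus strand) encodes the mitochondria-associated enzyme, whose malonyl-CoA restrains fatty acid import into mitochondria. It had 8 NCoR, 3 SMRT and 5 HDAC3 peaks. HDAC3 was present with NCoR at its promoter, at -353 bp, and at 2 intronic sites. Both shared sites of the window were nearer to the starts of Ung, a DNA repair gene just upstream, at -253 and 1041 bp from them and at -14795 and -13501 bp from Acacb. By basic TSSs Acacb was thus the 1 gene of the 10 with no shared site nearest to a start of its own. With the comprehensive TSSs this also held for Srebf1, whose shared site was then nearest to a start of Tom1l2, at -1498 bp.

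Among the genes that build and modify the chain, Fasn and the pair of Elovl6 and Scd1 stood at opposite ends. Fasn (ENSMUSG00000025153.9, chr11:120805846-120824547, minus strand) had 9 NCoR, 1 SMRT and 2 HDAC3 peaks, and its 7.58 NCoR peaks per 100 kb were a higher density than in 94.2% of genes. NCoR was at the promoter at -203 bp without either partner. The single shared site was at -6376 bp, inside an intron of Ccdc57, with an NCoR-only site at -7694 bp. The other HDAC3 peak of the window had neither NCoR nor SMRT and lay at -6 bp from the start of Dus1l. It was the only HDAC3 peak at the 10 genes with no NCoR peak within 200 bp.

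Of 615 genes with 9 NCoR peaks in the window, 7.48% had 8 or more NCoR-only sites, as Fasn did and as Acly and Acaca, the other 2 lipogenic genes with 9, did not. Of 5254 genes with 6 or more NCoR peaks, 0.266% (14 genes) had HDAC3 at every one, as Scd1 did and the other 8 lipogenic genes with 6 or more did not. Scd1 had the lowest number of this set, which reached 203 peaks, and the condition is harder to meet with more peaks. Its share is thus not matched by number as that of Fasn was, and none was taken over the 1236 genes with exactly 6. Both counts were set up after the values of Fasn and Scd1 were seen, so they describe how common the patterns were and support nothing further.

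Elovl6 (ENSMUSG00000041220.10, chr3:129532355-129638495, plus strand), whose product lengthens palmitate to stearate, had 14 NCoR, 5 SMRT and 10 HDAC3 peaks. It was the 1 gene of the 10 with a shared site at its own promoter, centred at -158 bp. Shared sites also lay in introns at 32628, 41562 and 59595 bp, and the fifth of the window lay in an intron of Egf. NCoR and HDAC3 without SMRT were found at 5 sites, 4 of them in introns of Elovl6. The 4 NCoR-only sites included one at -1670 bp.

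Scd1 (ENSMUSG00000037071.3, chr19:44394455-44407879, minus strand), whose product puts the double bond into palmitate and stearate, had 6 NCoR, 4 SMRT and 6 HDAC3 peaks. Shared sites flanked the gene at -10494 and -8719 bp upstream and at 18894 and 27439 bp, beyond its other end. NCoR and HDAC3 without SMRT were found in an untranslated exon of the gene, at 209 bp, and at 13548 bp. The desaturase genes Scd2, Scd3 and Scd4 lie in the same cluster and resemble Scd1 in sequence, and reads that mapped to more than 1 place had been discarded, so a site in a repeated stretch could be missed. The window of Scd4 held 3 of the NCoR peaks counted for Scd1, of which 2 were shared sites.

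Against all protein-coding genes, the lipogenic genes held more peaks of each cofactor. The median was 8.5 NCoR peaks per window (range 3 to 15) against 2 over all genes, where the 90th percentile was 9. For SMRT it was 2 against 0, for HDAC3 3 against 1, and for shared sites 2 against 0. The windows were also longer, with a median of 150.07 kb against 117.425 kb, and per 100 kb the medians for NCoR were 5.48 and 1.76. The background includes genes that are silent in liver. Among the 15868 genes with at least 1 NCoR peak the medians were 4 NCoR peaks, 1 shared site and 2.82 NCoR peaks per 100 kb. The medians of the lipogenic genes were above these as well, but not every gene was. Thrsp had 3 NCoR peaks, and Acaca and Me1 had 2.42 and 2.80 per 100 kb. Srebf1, Acly, Acaca and Fasn had 1 shared site each.

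**Figure D3:**
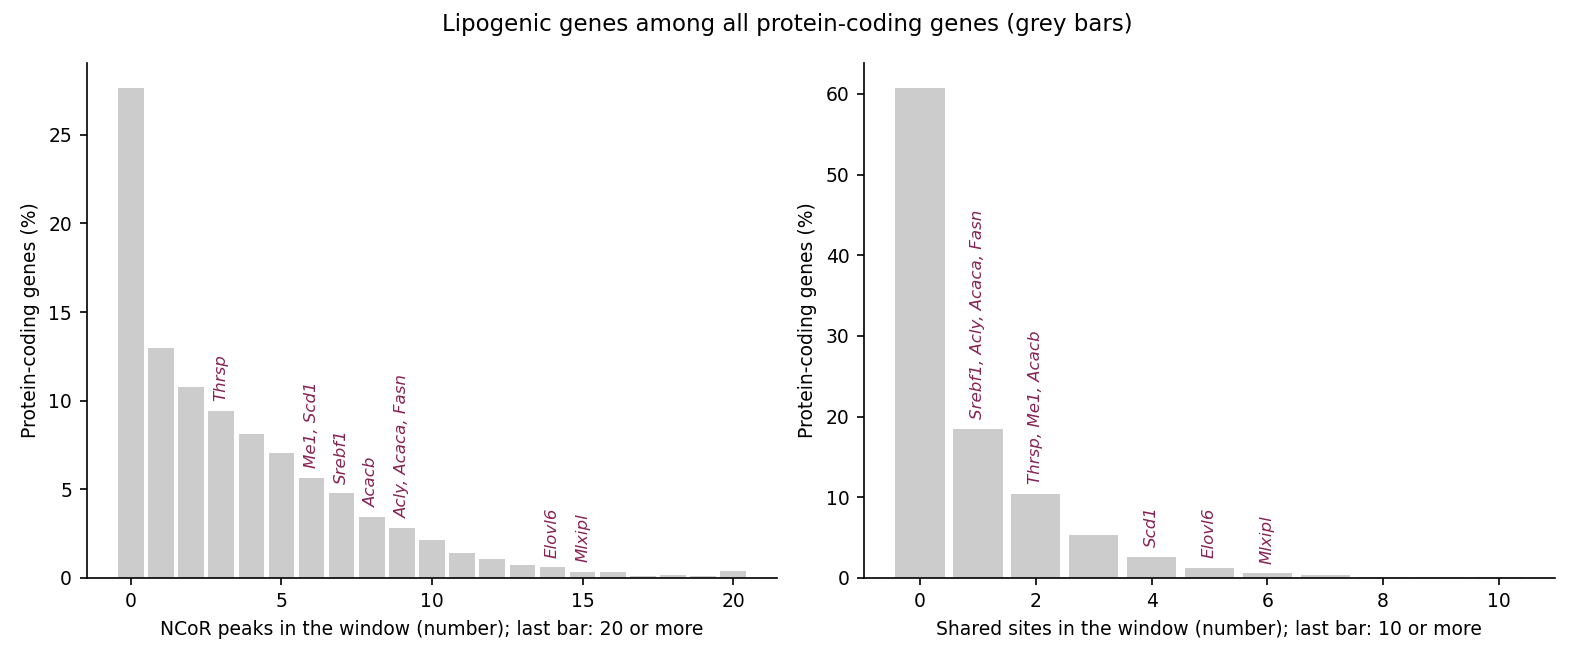
Percent of 21938 protein-coding genes (vertical axes, grey bars) by number of NCoR peaks (left) and of shared sites (right) in the gene or within 50 kb, with the lipogenic genes named above the bar they belong to. No lipogenic gene falls in the bar at 0, and Mlxipl and Elovl6 lie far to the right in both panels.

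At least 1 NCoR peak was present in the window of all 10 genes, where 72.3% of protein-coding genes had one. At least 1 SMRT peak was present at 10 of 10 (43.1% of all genes), at least 1 HDAC3 peak at 10 of 10 (52.1%) and at least 1 shared site at 10 of 10 (39.2%). With 5 or more shared sites, a level chosen after the values were seen, there were Mlxipl and Elovl6 only (2.44% of all genes). The density of NCoR did not set every gene apart: for Acaca, Me1 and Thrsp it exceeded that of 58.8%, 63.5% and 64.4% of genes, which is near the middle of the distribution. For Thrsp, whose peaks all lie within 10 kb of the gene, this depends on the window: with 10 kb on either side it had 12.1 NCoR peaks per 100 kb, above 96.5% of genes, and with 25 kb 5.48, above 83.1%.

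The partners at these genes were close to those of the whole lists. Of the 86 NCoR peaks, 25 were shared (29.1%, interval 19.8 to 39.9), against 24.9% of all NCoR peaks. NCoR with HDAC3 made up 17 (19.8%, 12.0 to 29.8) against 14.8%, NCoR with SMRT 2 (2.33%, 0.283 to 8.15) against 4.16%, and NCoR-only sites 42 (48.8%, 37.9 to 59.9) against 56.1%. All intervals took in the share of the whole list, so no difference was detectable with this number of peaks. Seen from the other lists, 25 of the 27 SMRT peaks were at shared sites (92.6%, 75.7 to 99.1, against 81.9% of all SMRT peaks), as were 25 of the 43 HDAC3 peaks (58.1%, 42.1 to 73.0, against 60.4%). No SMRT peak lacked NCoR, which allows a share of up to 12.8%, and over the whole list 3.35% of SMRT peaks stood alone and 0.901% had HDAC3 without NCoR, so the count is near the background.

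Partner centres lay far closer than the limit of 200 bp. The distance from NCoR to SMRT had a median of 26 bp (27 pairs, 3 to 111 bp), against 24 bp over all NCoR peaks with SMRT. From NCoR to HDAC3 it was 19.5 bp (42 pairs, 4 to 95 bp), against 23 bp. The widest pair with SMRT, 111 bp, was at the upstream shared site of Me1.

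NCoR lay near the starts of these genes, with HDAC3 at some and alone at others. The distance from an own TSS to the nearest NCoR centre had a median of 281 bp over the 10 genes (18 to 2393 bp), against 18428 bp over all genes. For HDAC3 the medians were 1912 and 60550.5 bp, for SMRT 6778.5 and 87644.5 bp, and for shared sites 7369.5 and 104404 bp. By basic TSSs the nearest HDAC3 peak was part of the same site as the nearest NCoR peak at Srebf1, Mlxipl, Acacb, Elovl6 and Scd1. At Thrsp, Acly, Me1, Acaca and Fasn the nearest NCoR peak was NCoR-only. With the comprehensive TSSs the nearest NCoR peaks of Srebf1 and Mlxipl, at -86 and -95 bp, were NCoR-only as well. Of all NCoR peaks, at any distance from a start, 56.1% were NCoR-only. That share was not taken over the peaks nearest to a start.

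**Figure D4:**
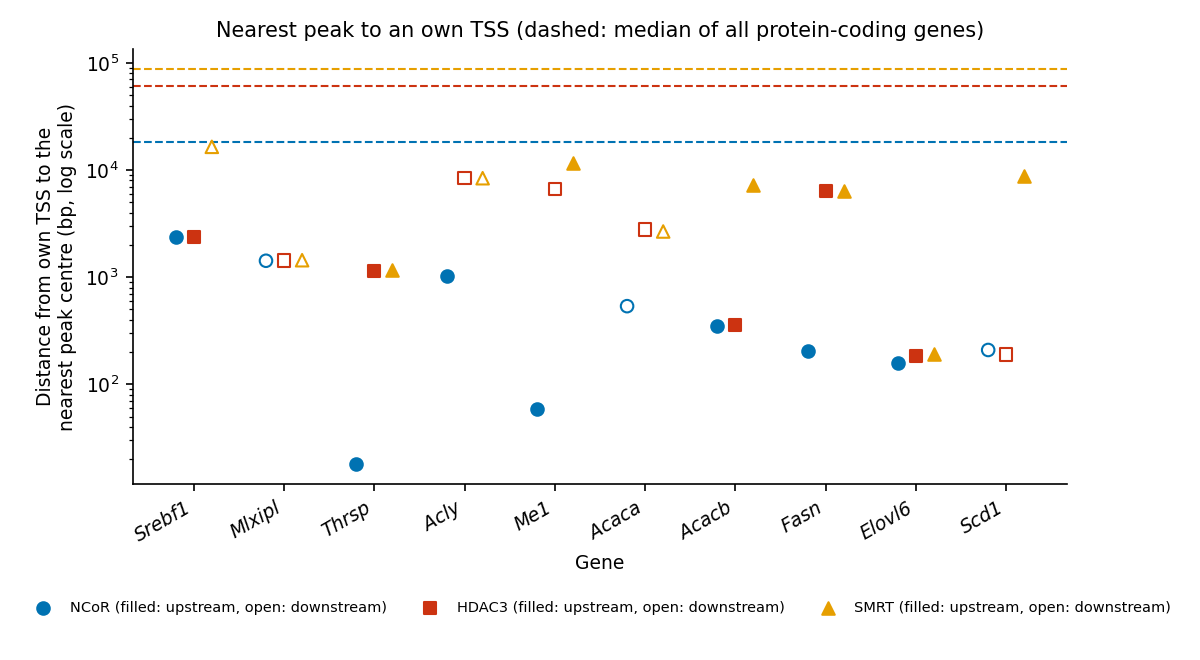
Distance in bp (log scale) from an own TSS to the nearest NCoR, HDAC3 and SMRT peak centre for each lipogenic gene, filled upstream and open downstream, with the median of all protein-coding genes as a dashed line in the colour of the cofactor. Every point lies under the line of its own cofactor, and NCoR is nearest at Thrsp, 18 bp from the start.

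A promoter was taken as 1000 bp before to 100 bp after a basic TSS. NCoR was at the own promoter of Thrsp, Me1, Acacb, Fasn and Elovl6, 5 of 10 genes, where 16.9% of all genes had one. HDAC3 was at the own promoter of Acacb and Elovl6 (2 of 10, background 5.42%), and SMRT (2.96%) and a shared site (2.34%) at that of Elovl6 only. With the comprehensive TSSs, taken up after the values were seen, NCoR was at an own promoter in 9 of 10 genes, Acly being the exception, where 20.2% of all genes had one. Within 5000 bp of a basic start, also taken up afterwards, it was 10 of 10, where 33.1% of all genes had one. The added starts at Srebf1, Mlxipl and Acaca are those described above, and that of Scd1 is an internal start of a transcript with no coding sequence.

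Most NCoR sites at these genes were nonetheless away from promoters. Of the 86, 46 lay in introns, 18 between genes, 11 at a promoter of some protein-coding gene (12.8%, 6.56 to 21.7, against 10.4% of all NCoR peaks), 5 in untranslated exons, 3 in coding exons, and 3 inside a gene record but outside its basic transcripts. Inside the lipogenic gene itself lay 40 of the 86, and 11 of the 25 shared sites. Promoters held 3 of the 25 shared (12%) and 6 of the 42 NCoR-only sites (14.3%). Over all NCoR peaks, of every class together, the share was 10.4%. It was not taken over all shared or all NCoR-only sites, so these class shares have no background of their own.

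A neighbour rather than the lipogenic gene held the nearest TSS for part of the sites. By basic TSSs of protein-coding genes, 61 of the 86 NCoR peaks and 21 of the 25 shared sites were assigned to the lipogenic genes. With the TSSs of all annotated genes, noncoding ones included, only 31 of the 86 were, so the assignment and the distances built on it depend on the starts used. Neighbours that took 2 or more were Ung (3, of which 2 shared), Vps37d (3), Dus1l (3), Klhl11 (2) and Bcl7b (2). One of the Dus1l peaks lay in the untranslated end of Fasn itself, and both Klhl11 peaks lay in introns of Acly. With the comprehensive TSSs these went to Fasn and Acly. The Vps37d peaks at -2746 and -95 bp from the upstream start of Mlxipl then went to Mlxipl. Other peaks were lost to neighbours. Those at -9470, -13398 and -20070 bp from Srebf1, the last its only shared site, went to Tom1l2. Those at -26814 and -27668 bp from Fasn went to Ccdc57. In total 62 of the 86 were then assigned to the lipogenic genes, in place of 61. The 61 assigned peaks had a median distance of 9470 bp from the start, 16 were within 5000 bp, and 26 lay upstream and 35 downstream. Shared and NCoR-only sites were at similar distances, with medians of 8719 and 8817 bp.

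The DNA under the 86 NCoR peaks was searched for 12 fixed motifs, on both strands, in the 200 bp around each centre, with the same search in all 35138 NCoR peaks. At least 1 match was found in 46 of 86 peaks, 13 of 25 shared and 19 of 42 NCoR-only sites. These shares, 53.5%, 52% and 45.2%, were near the 49.1% of all NCoR peaks, 56.3% of all shared and 45.3% of all NCoR-only sites with a match. Some strings overlap: a DR1 can contain the HNF4 half-site (CAAAGTCCA), and the ROR and REV-ERB element shares letters with DR1 and DR4. The GC content had a median of 51.5%, against 48% for all NCoR peaks, and its part in the motif shares was not tested.

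DR1 was matched in 6 of the 86 peaks (6.98%, 2.60 to 14.6), against 1.55% of all NCoR peaks and 0.171% of windows 2000 bp away from them. The matches were in 2 peaks upstream of Mlxipl, at the promoter of Acacb, in introns of Acly and Elovl6 (at 5153 and 50272 bp), and at -7694 bp from Fasn. By basic TSSs the 2 peaks upstream of Mlxipl were assigned to Vps37d, at -2465 and -11529 bp. With the comprehensive TSSs only the second of them went to Mlxipl. None of the 6 was a shared site, while over all NCoR peaks DR1 was matched in 1.62% of shared and 1.43% of NCoR-only sites. It was the only one of the 12 motifs whose interval lay apart from the share in all NCoR peaks, and with 12 motifs looked at and no test run this is a description of 6 sites. The HNF4 half-site was matched in 3 peaks (3.49%, against 2.10%) and DR4, the repeat for thyroid hormone receptor and LXR, in 2 (2.33%, against 1.77%).

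The ROR and REV-ERB element was matched in 7 peaks (8.14%, 3.34 to 16.1), against 5.59% of all NCoR peaks and 1.94% of the windows 2000 bp away. REV-ERB proteins are clock repressors that work through NCoR and HDAC3. The matches were in shared sites of Thrsp (at -6125 bp) and Scd1, in the intronic NCoR and HDAC3 site of Me1, and in NCoR-only sites of Acly (2 peaks), Mlxipl and Acaca. E-boxes were matched in 6 peaks (6.98%, 2.60 to 14.6, against 4.15%), each in the window of a different gene. By nearest basic TSS, the E-box peak of Srebf1 was the only one assigned to a lipogenic gene. With the comprehensive TSSs the E-box peak in the window of Mlxipl was too, at -95 bp from the upstream start of that gene. The element TCACNCCAC, taken for SREBP, was matched in none of the 86, which allows a share of up to 4.20%, and in 0.808% of all NCoR peaks.

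Of the other motifs, C/EBP was matched in 10 peaks (11.6%, 5.72 to 20.3), against 19.1% of all NCoR peaks, with 5 of the 10 in shared sites. FOX was matched in 5 peaks (5.81%, against 7.74%), 4 of them shared sites (2 at Elovl6, 1 each at Srebf1 and Mlxipl). Over all NCoR peaks both motifs were also more common in shared sites. C/EBP was matched in 24.7% of all shared and 16.2% of all NCoR-only sites, and FOX in 9.93% and 6.69%. HNF6 (TATNGAT) was matched in 7 (8.14%, against 8.41%), NF-Y in 6 (6.98%, against 3.75%), the BCL6/STAT string TTCNNNGAA in 2 (2.33%, against 7.07%) and ETS (CCGGAAGT) in 1 (1.16%, against 0.754%). In each case the interval took in the share of all NCoR peaks.

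**Figure D5:**
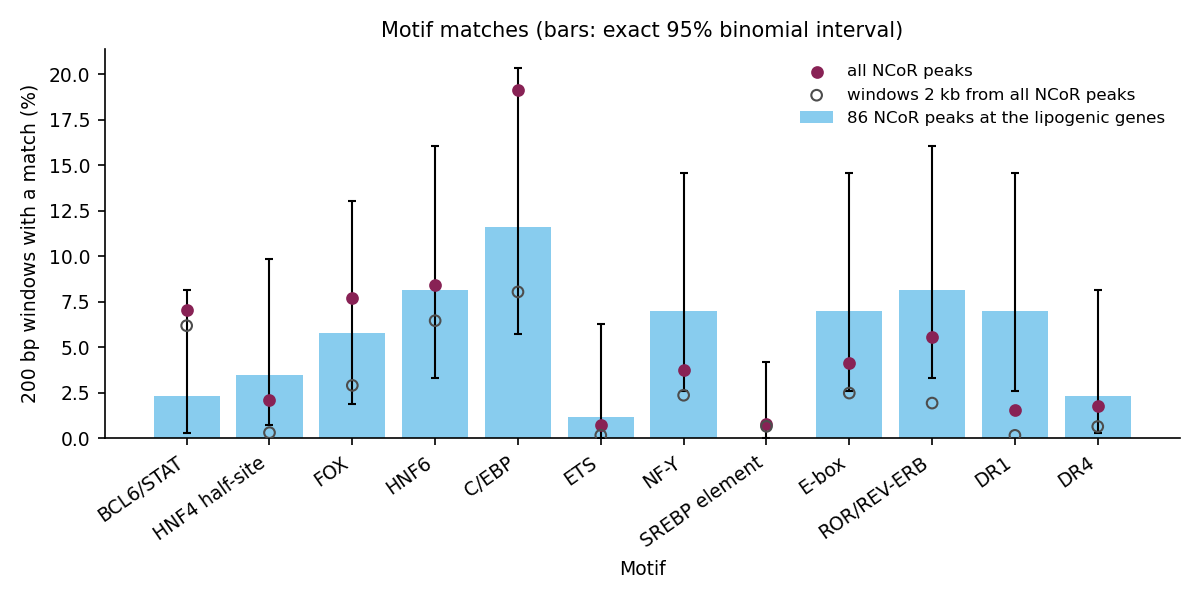
Percent of 200 bp windows with a match (vertical axis) for 12 motifs, in the 86 NCoR peaks at the lipogenic genes (bars, with exact 95% binomial intervals), in all NCoR peaks (filled points) and in windows 2000 bp from all NCoR peaks (open points). The interval for DR1 lies above the share of all NCoR peaks, and those of the other 11 motifs take in that share.

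A wider list of 31 genes around the pathway (carriers, glycolytic and NADPH-making enzymes, other desaturases and elongases, triglyceride synthesis, and regulators) was counted in the same way. NCoR was in the window of 30 (72.3% of all genes), SMRT of 28 (43.1%), HDAC3 of 27 (52.1%) and a shared site of 26 (39.2%), with medians of 7 NCoR peaks and 2 shared sites. An NCoR peak was at the own promoter of 10 of the 31 (16.9% of all genes). The 4 genes with the most shared sites were Dgat2, the gene of an enzyme that completes triglyceride synthesis (6 shared of 20 NCoR peaks), Elovl5, an elongase of polyunsaturated chains (5 of 13), Agpat2, an acyltransferase of phosphatidic acid synthesis (4 of 11), and Fads2, a desaturase of polyunsaturated fatty acids (4 of 16), with Pnpla3 and Srebf2 equal to the last pair at 4. Nr1h2, which encodes LXR beta, was the only gene of the list with no peak of any cofactor.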

How the data were processed

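ChIP-seq libraries for SMRT, NCoR and HDAC3 (3 each, 9 in all) from fed control livers stood behind the 3 peak lists used. The authors aligned single-end reads to mm10 with Bowtie, kept uniquely mapped reads and 1 read per position, and called peaks with HOMER after pooling the replicates, with input as the control. They kept peaks that passed a fold and a false discovery threshold in a count model of the separate libraries. The deposited lists hold only the position of each peak (chromosome, start, end), with a fixed length of 212 bp (SMRT), 228 bp (NCoR) or 212 bp (HDAC3), and no score. Read depth is not given in the sources used here. Shallow sequencing, a poor antibody and little binding all shorten a list, and here they cannot be told apart. Positions are printed as listed, and whether starts count from 0 or 1 is not stated, which could move a sequence by 1 base.

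Genes and TSSs came from the GENCODE vM21 annotation of GRCm38 (basic transcripts, with the comprehensive set as an alternative). Peak centres were placed in windows, assigned to the nearest TSS of a protein-coding gene, and classed by partners within 200 bp between centres, the distance the study used. No test was run, as the lists carry no replicate values. The steps were tested on simulated peaks. Python 3.11.15, pandas 2.3.3, numpy 2.4.6, scipy 1.17.1, pysam 0.24.0 and matplotlib 3.10.9 were used.

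All 10 genes are named, with neighbours that took 2 or more NCoR peaks and, from the wider list, the 4 with most shared sites (ties broken by symbol) and those with no peak. The genes, lists and motifs were chosen with earlier results of these data known.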

Additional observations from a re-analysis of the deposited data

How the results depend on the processing

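Of the main results, 25 values under another setting stayed within the limits set for them and 9 did not. The limits for counts were wide. The NCoR peaks in the windows, 86 in the main setting, counted as staying with 63 (10 kb on either side) and with 128 (100 kb). With 100 kb on either side the windows held 45 SMRT and 66 HDAC3 peaks, in place of 27 and 43. The median NCoR density was 9.64 peaks per 100 kb with 10 kb on either side and 8.10 with 25 kb, in place of 5.48, while the median over all genes was 0.861 and 1.58, in place of 1.76. With the TSSs of all annotated genes, noncoding ones included, 31 and not 61 NCoR peaks were assigned to the lipogenic genes. The promoter share was 34.9% with promoters of 5000 bp to either side (26.1% of all NCoR peaks) and 22.1% with the comprehensive TSSs (13.4% of all). NCoR was at an own promoter in 9 genes with the comprehensive TSSs and in 10 with 5000 bp, in place of 5. The uses of comprehensive TSSs, and of 5000 bp for own promoters, were chosen after seeing the data. With 10 kb on either side, 8 of 10 genes had a shared site, Srebf1 and Acacb being the exceptions, as had 20.7% of all genes, in place of 39.2%. Without any 1 gene, the shared part of the NCoR peaks ran from 26.3% (without Scd1) to 31.2%. In the central 100 bp DR1 was matched in 5 of the 86 peaks, against 0.970% of all NCoR peaks.

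No paired analysis was possible because the lists were called on pooled libraries and hold no value per replicate. For the same reason leaving out a replicate and a stricter peak threshold were not run.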
